A study of Homo sapiens with 12 samples.

Results

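Mammalian cells load serine-derived carbon onto tetrahydrofolate in parallel in the mitochondria and in the cytosol. In mitochondria, SHMT2 takes the carbon from serine, MTHFD2 or its paralog MTHFD2L oxidises it, and MTHFD1L releases it as formate; in the cytosol, MTHFD1 carries out the corresponding steps in 1 polypeptide and SHMT1 exchanges carbon with serine. ALDH1L2 in mitochondria and ALDH1L1 in the cytosol burn the formyl group to carbon dioxide and make NADPH, SLC25A32 carries folate into mitochondria, and MTFMT uses formyl-folate to prepare the initiator tRNA of mitochondrial translation. These 10 genes (MTHFD2, MTHFD2L, MTHFD1, MTHFD1L, SHMT1, SHMT2, ALDH1L1, ALDH1L2, SLC25A32 and MTFMT) were taken by symbol from the 60648 genes of the deposited count table. They are described across HCT116 cells, a human colon carcinoma line, that were MTHFD2 wild type (MTHFD2-WT) or knock-out (MTHFD2-KO).

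Poly-A RNA-seq libraries were made in 4 groups of 3: wild type and knock-out, harvested either at the start (for the knock-out, directly after it was made; the initial harvest) or once 2 months had passed in culture (the final harvest). All cells grew in DMEM with serum and antibiotics. The knock-out was made with CRISPR-Cas9 and is 1 clone, so the effect of losing MTHFD2 and other properties of that clone cannot be told apart. The series calls the libraries of a group biological replicates, and p-values measure the spread between them.

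Libraries held 38597809 to 40017561 counts. All 10 genes passed the filter on low counts among the 18289 genes tested. Of the 10 colon epithelium markers examined, 6 exceeded 1 TMM-scaled CPM (a gene's counts relative to its library's scaled total) in every library (EPCAM, CDH1, KRT8, KRT18, KRT19 and CDX2), while KRT20, CDX1, VIL1 and LGALS4 stayed under 1 CPM. The summed level of the 10 was 2624 to 3233 CPM in wild-type and 2214 to 2705 CPM in knock-out libraries, and its part in the results was not tested. Of the fibroblast markers, DCN and LUM had 0 counts and COL1A2 at most 1, while COL3A1 had 0.175 to 1.81, PDGFRB 0.544 to 1.84 and COL1A1 36.2 to 77.3 CPM. Of the leukocyte markers, CD3E had 0 counts, PTPRC at most 2, and CD14, LYZ and ITGAM at most 1.86 CPM. In bulk RNA, fewer cells that express a gene and less RNA per cell cannot be told apart.

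Across both harvests, 4 of the 10 genes were lower in the knock-out and none was higher. The 4 are all mitochondrial enzymes: MTHFD2 itself, MTHFD1L, SHMT2 and ALDH1L2. MTHFD2L, the paralog of MTHFD2, and the cytosolic enzymes MTHFD1 and SHMT1 were not called in any comparison. The calls use edgeR's quasi-likelihood test on the average of the genotype differences at the initial and final harvests, with a Benjamini-Hochberg adjusted p under 0.05 over all genes tested. In that comparison 30.1% of all tested genes were called (16.1% lower and 14% higher), against 40% of these genes; the median log2 fold change of the 10 was -0.06 and that of all genes 0.003. The share called lies near the background, and it counts MTHFD2, the gene that was targeted. The same 4 genes were called under each of the 17 settings tried (the main one and 16 alternatives).

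**Figure D1:**
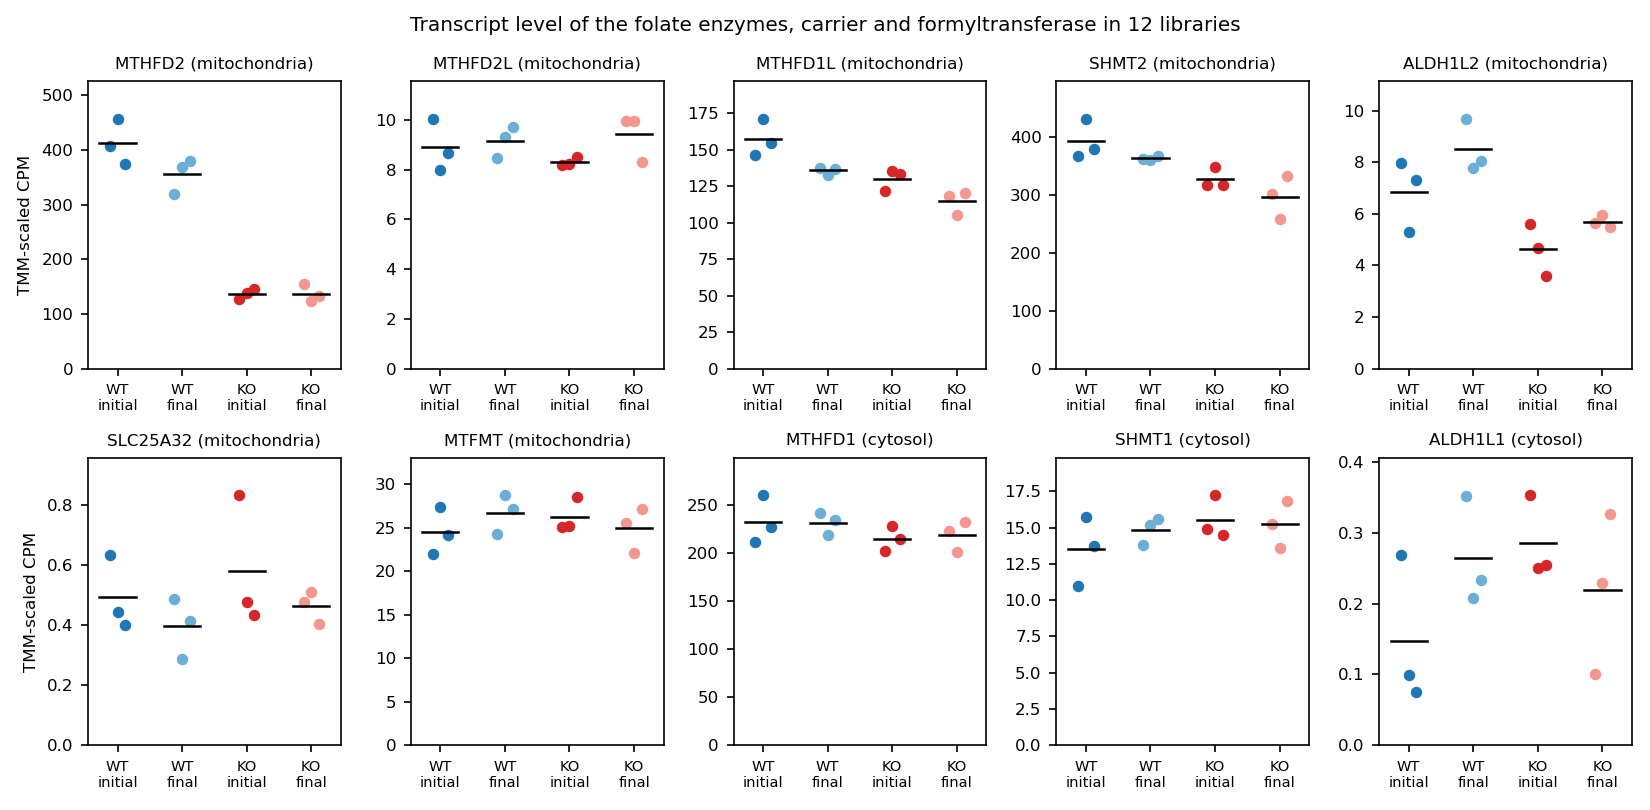
TMM-scaled CPM (vertical axis, from 0) of the 10 genes in the 12 libraries, by group; each point is a library and each line a group mean. MTHFD2 and SHMT2 have all 6 knock-out libraries below all 6 wild-type libraries, and MTHFD2L ranges from 7.98 to 10 in the 12 libraries.

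MTHFD2, the mitochondrial dehydrogenase and cyclohydrolase that was targeted (ENSG00000065911.13, GRCh38 chromosome 2, 74186172 to 74217565, plus strand), had 16638, 18478 and 14981 counts in the initial wild type and 11742, 14135 and 14667 in the final wild type. It had 5059, 5505 and 5711 counts in the initial knock-out and 6175, 4814 and 5293 in the final knock-out. The groups of different genotype did not overlap, and every knock-out library kept at least 4814 reads on the gene. Averaged over harvests, its log2 fold change was -1.48 (SE 0.0759, 95% interval -1.64 to -1.32, adjusted p 3.39e-10), or 35.8% of the wild-type level. The counts do not show whether the remaining transcript encodes a working enzyme. Of the exon bases counted for MTHFD2, 11.6% are shared with SLC4A5 on the other strand, which had a mean of 52.1 counts against 10267 for MTHFD2. Of the 50-base stretches of the MTHFD2 coding transcript, 35.7% also occur, on either strand, in transcripts of other genes, and 28.9% in those of SLC4A5. How reads on such stretches were counted is not stated, and their part in the MTHFD2 level was not tested. The 7 MTHFD2 pseudogenes in the table had means of 0 to 2.83 counts and never more than 5.

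MTHFD2L (ENSG00000163738.19, chromosome 4, 74114174 to 74303099, plus strand) catalyses the same pair of reactions as MTHFD2 in mitochondria. It had 10.0, 7.98 and 8.66 CPM in the initial wild type and 8.17, 8.25 and 8.5 CPM in the initial knock-out. At the final harvest it had 8.47, 9.33 and 9.7 CPM in the wild type and 9.96, 9.97 and 8.31 CPM in the knock-out. The ranges overlapped at both harvests. Initially its log2 fold change was -0.10, with an adjusted p of 0.596, and finally 0.04, with an adjusted p of 0.86. Averaged, it was -0.03 with a 95% interval of -0.20 to 0.14, so that knock-out levels between 0.872 and 1.1 times the wild type lie inside the interval and a doubling lies outside it. No alternative setting called it, and the averaged adjusted p ranged from 0.546 to 1 over them, with values just above 0 without initial wild-type replicate 1 (0.02) or final knock-out replicate 3 (0.01).

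Levels of different genes are compared per length, as TMM-scaled RPKM (CPM per kilobase of the gene's summed exon length in the deposited table). On this scale MTHFD2L had 0.906 ± 0.107 RPKM in the initial wild type (SD, n = 3) and MTHFD2 36.1 ± 3.6 RPKM. Between genotypes at the initial harvest, the level of MTHFD2 differed by -24.1 RPKM and that of MTHFD2L by -0.0598 RPKM; at the final harvest the differences were -19.1 and 0.0255 RPKM. MTHFD2L made up 2.47% ± 0.421 of the summed level of the pair in the initial wild type and 6.61% ± 0.303 in the initial knock-out, and 2.92% ± 0.0728 and 7.46% ± 1.03 at the final harvest (SD, n = 3). The share was higher in every knock-out library than in every wild-type library, with a lower MTHFD2 level and a MTHFD2L level whose ranges overlapped. With the length of the principal coding transcript in GENCODE 29 in place of the summed exon length, a choice made after seeing the data, the shares were 4.04% and 10.5% initially and 4.76% and 11.8% finally.

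SHMT2, the mitochondrial serine hydroxymethyltransferase that feeds MTHFD2 with 5,10-methylene-tetrahydrofolate (ENSG00000182199.11, chromosome 12, 57229573 to 57234935, plus strand), had 367, 432 and 381 CPM in the initial wild type and 362, 361 and 368 CPM in the final wild type. The knock-out had 318, 349 and 317 CPM initially and 301, 258 and 332 CPM finally. The highest of the 6 knock-out libraries (349 CPM) stayed under the lowest of the 6 wild-type ones (361 CPM). The averaged log2 fold change was -0.28 (SE 0.0686, 95% interval -0.42 to -0.13, adjusted p 0.00586), or 82.6% of the wild type. By harvest it was -0.26 at the initial one (adjusted p 0.0709, not called) and -0.29 at the final one (adjusted p 0.0478). The final call held in 5 of 17 alternatives. It was lost with RLE factors (adjusted p 0.0558), a replicate block (0.0669) or a fit of only the groups compared (0.0814), and on leaving out initial wild-type replicate 3 (0.0611), any final wild-type replicate (0.0774 to 0.124), any initial knock-out replicate (0.0607 to 0.0654) or final knock-out replicate 1 (0.102) or 2 (0.212). The 20 nearest expressed genes on chromosome 12 had median log2 fold changes of -0.21 initially and -0.11 finally. Of them, 17 and 16 lay below 0, and 7 and 5 were called lower, beside 11.3% and 10.2% of all genes tested. The neighbours of MTHFD1, itself not called, had medians of -0.08 and -0.11, with 5 and 7 of 20 called lower. Those of SHMT1 had -0.025 and -0.13, those of ALDH1L2 -0.08 and -0.05, and those of MTFMT 0.009 and 0.005. The part of nearby genes in the SHMT2 value was not tested.

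MTHFD1L, the mitochondrial formyl-tetrahydrofolate synthetase that releases formate (ENSG00000120254.16, chromosome 6, 150865679 to 151101887, plus strand), had 146, 171 and 154 CPM in the initial wild type and 122, 136 and 133 CPM in the initial knock-out. In the final libraries it had 138, 133 and 137 CPM in the wild type and 119, 105 and 120 CPM in the knock-out. The genotypes did not overlap at either harvest, although the final wild type reached down to the level of the initial knock-out. Its averaged log2 fold change was -0.26 (SE 0.0584, 95% interval -0.38 to -0.13, adjusted p 0.00297), or 83.7% of the wild type. The initial difference was called (-0.27, adjusted p 0.0278) and the final one was not (-0.24, adjusted p 0.0521). The initial call was lost without any filter on low counts (adjusted p 0.0521) and on leaving out initial wild-type replicate 2 or 3 (0.0746 and 0.0597) or initial knock-out replicate 1, 2 or 3 (0.144, 0.0546 and 0.0606). The final difference passed with DESeq2 (adjusted p 0.038) and without initial wild-type replicate 1 (0.0379) or 2 (0.0273). Its 20 nearest expressed neighbours had median log2 fold changes of 0.07 and -0.01.

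Promoters were searched for TGATGNAAN on either strand, the letters of amino acid response elements, which ATF4 binds with C/EBP partners; SHMT2 and ALDH1L2 were not among the genes searched. RefSeq windows on GRCh38.p14, from 250 bases before to 50 after a gene's start, were found for 6 of the 10 genes (MTHFD2, MTHFD2L, MTHFD1, MTHFD1L, SHMT1 and ALDH1L1), 11 windows in all. A match occurred at 1 place, in 3 of the 4 overlapping or alternative windows of MTHFD1L and in no window of the other 5 genes, while 3.61% of all 35116 windows of this length hold one. The place is chr6:150866347-150866375 on the plus strand, 129 and 90 bases before the start in 2 of the windows and 24 bases after it in the other, and is printed 5′ to 3′ with the match in capitals.
MTHFD1L: ccgccggctcTGATGCAATcgcgccgggc
A match is a description of these letters, and its absence from a window says nothing about binding elsewhere.

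ALDH1L2, the mitochondrial formyl-tetrahydrofolate dehydrogenase (ENSG00000136010.14, chromosome 12, 105019784 to 105107643, minus strand), had 7.96, 5.29 and 7.33 CPM in the initial wild type and 5.62, 4.69 and 3.6 CPM in the initial knock-out, where the ranges overlapped. At the final harvest it had 9.69, 7.79 and 8.05 CPM in the wild type and 5.66, 5.94 and 5.5 CPM in the knock-out, without overlap. Its averaged log2 fold change was -0.57 (SE 0.118, 95% interval -0.82 to -0.32, adjusted p 0.00144), or 67.3% of the wild type, the largest decrease among the 10 genes after that of MTHFD2. It was called at the initial harvest (-0.56, adjusted p 0.0261) and at the final harvest (-0.58, adjusted p 0.0209). The initial call was lost in a fit of only the groups compared (adjusted p 0.0576) and without initial wild-type replicate 1 or 3 (0.0942 and 0.0938) or initial knock-out replicate 2 or 3 (0.0734 and 0.132). The final call was lost without final wild-type replicate 1 (0.0793) or final knock-out replicate 1 or 3 (0.0569 and 0.057). The genes NOPCHAP1 and WASHC4 on the other strand share 1.5% and 1.4% of its exon bases and had 948 and 2322 mean counts against 252 for ALDH1L2; since the use of strand in the counting is not stated, their part in its counts was not tested.

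**Figure D2:**
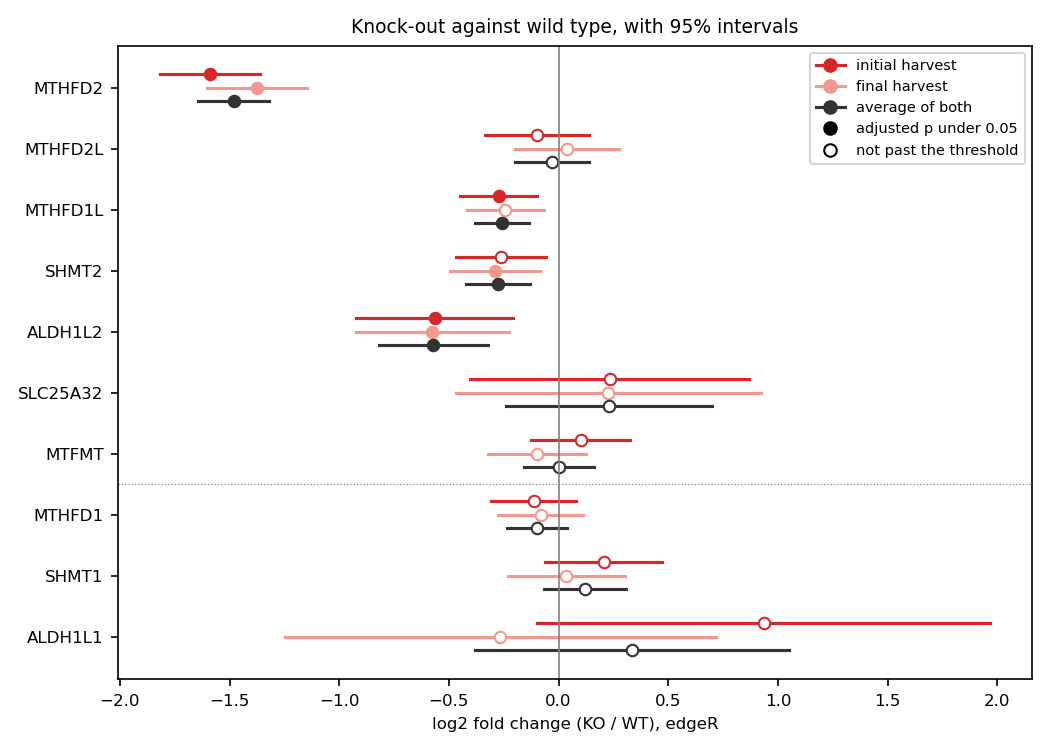
Log2 fold change of knock-out over wild type (horizontal axis, edgeR) with its 95% interval for each gene (vertical axis), at the initial harvest, the final harvest and on average; filled points passed the adjusted p threshold of 0.05 and the dotted line separates cytosolic enzymes below from mitochondrial genes above. MTHFD2, MTHFD1L, SHMT2 and ALDH1L2 have averaged intervals below 0, and the averaged intervals of the other 6 genes include 0.

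At the initial harvest 3 of the 10 genes were called, all lower (MTHFD2, MTHFD1L and ALDH1L2), against 19.9% of all genes tested (11.3% lower and 8.55% higher). Genotypes were apart without overlap for 3 genes (MTHFD2, MTHFD1L and SHMT2), against 35.5% of all genes. At the final harvest 3 were again called, all lower (MTHFD2, SHMT2 and ALDH1L2), against 18.5% of all genes (10.2% lower and 8.38% higher), and ranges did not overlap in 4 of 10, against 33.1%. The counts at both harvests include MTHFD2, the gene that was targeted. MTHFD1L and SHMT2 crossed the threshold at different harvests. The interaction of genotype and harvest, which tests whether a genotype difference changed, was 0.03 for MTHFD1L (95% interval -0.22 to 0.28, adjusted p 0.946), -0.03 for SHMT2 (-0.32 to 0.26, 0.958) and -0.01 for ALDH1L2 (-0.51 to 0.49, 0.991). For MTHFD2L it was 0.14 (-0.20 to 0.47, 0.774).

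MTHFD1, the trifunctional cytosolic enzyme that interconverts the same folate forms (ENSG00000100714.17, chromosome 14, 64388031 to 64463457, plus strand), had 212, 261 and 227 CPM in the initial wild type and 203, 228 and 215 CPM in the initial knock-out. At the final harvest it had 242, 219 and 234 CPM in the wild type and 224, 201 and 233 CPM in the knock-out. The ranges overlapped at both harvests. The averaged log2 fold change was -0.10 (SE 0.0649, 95% interval -0.24 to 0.04, adjusted p 0.286), so the interval reaches from 0.849 to 1.03 times the wild-type level. In RPKM, MTHFD2 stood at 189% ± 14.5 of MTHFD1 in the initial wild type and at 68.0% ± 3.97 in the initial knock-out (SD, n = 3). With coding transcript lengths the values were 125% ± 9.59 and 44.8% ± 2.62, and in the final libraries 108% ± 13.7 (92.6% to 118%) and 44.0% ± 4.45, so on that scale MTHFD2 did not exceed MTHFD1 in every final wild-type library.

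SHMT1, the cytosolic serine hydroxymethyltransferase (ENSG00000176974.20, chromosome 17, 18327860 to 18363563, minus strand), had 11, 15.7 and 13.7 CPM in the initial wild type and 14.9, 17.2 and 14.5 CPM in the initial knock-out. In the final libraries it had 13.8, 15.2 and 15.6 CPM in the wild type and 15.3, 13.6 and 16.9 CPM in the knock-out. The ranges overlapped at both harvests, and the lowest library was initial wild-type replicate 1. Its averaged log2 fold change was 0.12 (SE 0.0887, 95% interval -0.07 to 0.31, adjusted p 0.342), which spans 0.954 to 1.24 times the wild type. In RPKM, SHMT2 exceeded SHMT1 by a ratio of 46.8 ± 5.34 in the initial and 38.9 ± 2.32 in the final wild type, and of 33.5 ± 1.27 and 30.9 ± 0.644 in the knock-out (SD, n = 3). The ratio was lower in each knock-out library than in each wild-type library. With coding transcript lengths the means were lower throughout, at 28.7 and 23.8 in the wild type and 20.5 and 18.9 in the knock-out, and these ranges were also apart.

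ALDH1L1, the cytosolic formyl-tetrahydrofolate dehydrogenase (ENSG00000144908.14, chromosome 3, 126103562 to 126197994, minus strand), was close to the limit of detection. It had 11, 4 and 3 counts in the initial and 13, 8 and 9 in the final wild type, and 14, 10 and 10 in the initial and 4, 9 and 13 in the final knock-out. The groups overlapped, and the averaged log2 fold change of 0.34 had a 95% interval of -0.38 to 1.05 (adjusted p 0.502). Without initial wild-type replicate 1, its initial difference changed from 0.94 (adjusted p 0.203) to 1.68 and passed the threshold (adjusted p 0.0489). The averaged value was not called in any setting, and its interval holds both decreases and increases.

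SLC25A32, the mitochondrial folate carrier (ENSG00000164933.12, chromosome 8, 103398635 to 103415189, minus strand), had 11 to 33 counts per library, with a median of 0.461 CPM. Its counts may not measure the gene as a whole. Of its exon bases, 69.7% are shared on the same strand with ENSG00000285982, a gene model with a mean of 0.1 counts, and 97.5% of the 50-base stretches of its coding transcript also occur in transcripts of other genes. DCAF13 on the other strand shares a further 11.1% of its exon bases and had a mean of 5224 counts. By default featureCounts leaves out reads that fall on more than 1 gene; the setting used is not stated, and its part in the low counts was not tested. The averaged log2 fold change was 0.23 (95% interval -0.24 to 0.70, adjusted p 0.482), which says little about the carrier.

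MTFMT, the mitochondrial methionyl-tRNA formyltransferase (ENSG00000103707.10, chromosome 15, 65001512 to 65029639, minus strand), is a consumer of mitochondrial formyl-folate. It had 22, 27.4 and 24.1 CPM in the initial and 24.3, 28.7 and 27.2 CPM in the final wild type, and 25.1, 25.2 and 28.5 CPM in the initial and 25.6, 22.1 and 27.2 CPM in the final knock-out. The groups overlapped. The averaged log2 fold change was 0.002 (SE 0.075, 95% interval -0.16 to 0.16, adjusted p 0.99).

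In RPKM the order of the wild type was SHMT2, MTHFD2, MTHFD1L, MTHFD1, MTFMT, SHMT1, MTHFD2L, ALDH1L2, SLC25A32 and ALDH1L1 at both harvests. The neighbours MTHFD2 and MTHFD1L, and MTHFD2L and ALDH1L2, overlapped between libraries there. In the knock-out MTHFD2, at 12 RPKM in either harvest, also stood behind MTHFD1L (26.6 and 23.5 RPKM) and MTHFD1 (17.6 and 18.0 RPKM), and no neighbours overlapped. The order depends on the length used: with coding transcript lengths MTHFD1 stood above MTHFD1L in all 4 groups (74.3 against 43.6 RPKM in the initial wild type and 68.7 against 36.1 RPKM in the initial knock-out). MTHFD2 then overlapped MTHFD1 in the final wild type and MTHFD1L in the final knock-out, and MTHFD2L and ALDH1L2 no longer overlapped. SLC25A32 and ALDH1L1 also overlapped in the final wild type on that scale. The low place of SLC25A32 and the place of MTHFD2 carry the counting limits given above.

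Summed over MTHFD2, MTHFD2L, MTHFD1L, SHMT2 and ALDH1L2, the mitochondrial enzymes had 147, 170 and 149 RPKM in the initial and 137, 140 and 143 RPKM in the final wild type, and 107, 117 and 110 RPKM in the initial and 105, 90.1 and 110 RPKM in the final knock-out. Every knock-out sum was below every wild-type sum, and the knock-out mean was 71.6% of the wild type initially and 72.8% finally. Without MTHFD2, the other mitochondrial enzymes summed to 119 ± 9.79 and 109 ± 1.21 RPKM in the wild type and to 99.4 ± 5.04 and 89.8 ± 9.62 RPKM in the knock-out (initial and final, SD, n = 3). The cytosolic enzymes MTHFD1, SHMT1 and ALDH1L1 summed to 20.9 ± 2.36 and 21.1 ± 0.878 RPKM in the wild type and to 19.8 ± 1.19 and 20.1 ± 1.57 RPKM in the knock-out, or 94.5% and 95.3% of the wild type, with overlapping ranges. In the initial wild type SHMT2 made up 85.6 of the mitochondrial 155 RPKM, and MTHFD1 19.1 of the cytosolic 20.9 RPKM. MTHFD1 is counted once for steps that separate genes carry out in mitochondria, so a ratio of the sums does not weigh the compartments step by step. The ratio of the mitochondrial to the cytosolic sum was 7.44 ± 0.321 and 6.65 ± 0.34 in the wild type and 5.63 ± 0.0722 and 5.07 ± 0.131 in the knock-out. With coding transcript lengths, which raise the cytosolic sum of the initial wild type from 20.9 to 79.8 RPKM, the ratio was 3.72 and 3.32 in the wild type and 2.67 and 2.42 in the knock-out. These sums are descriptions and were not tested; without length correction, as summed CPM, the mitochondrial level of the knock-out was 62.2% of the wild type initially and 64.7% finally.

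**Figure D3:**
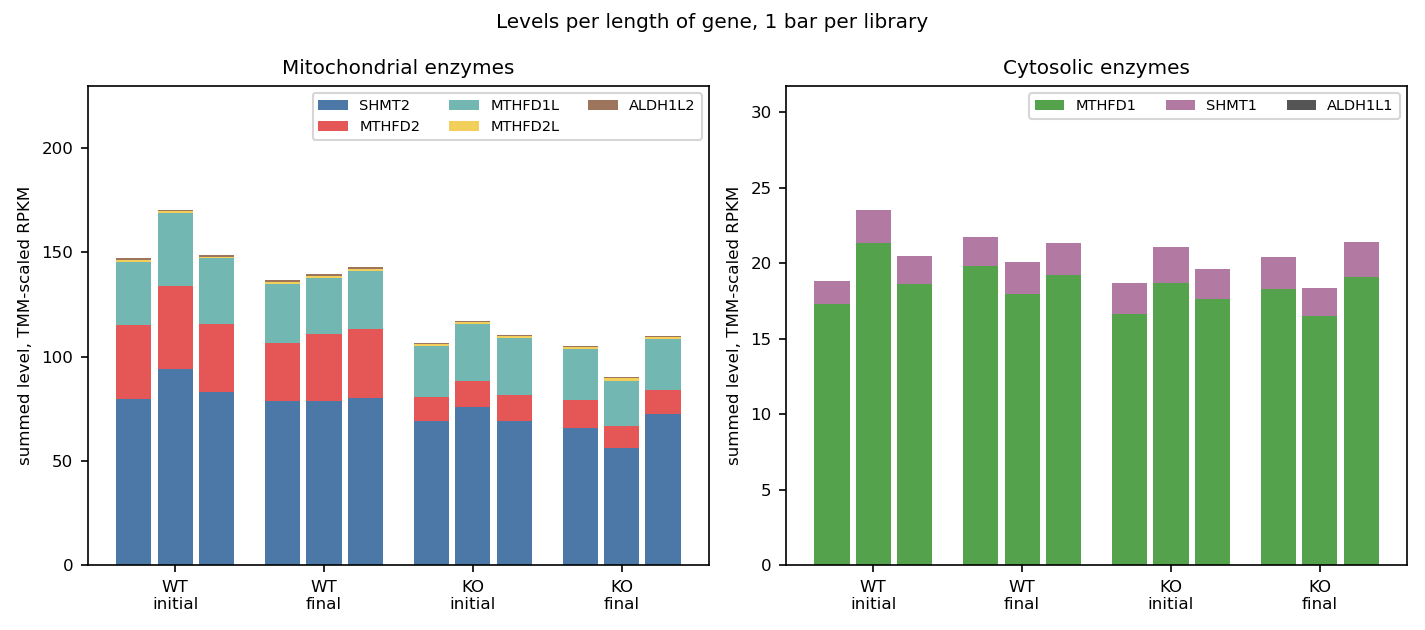
Stacked levels per length (vertical axes, TMM-scaled RPKM from 0, on different scales) of the mitochondrial enzymes (left) and the cytosolic enzymes (right), with 1 bar per library. The mitochondrial sums lie between 136.7 and 170.3 in the wild type and between 90.1 and 117 in the knock-out, while the cytosolic sums of the genotypes overlap; ALDH1L1 is too low to be seen.

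Over the 2 months of culture no member passed the threshold. In the wild type 0 of 10 were called by edgeR's quasi-likelihood test (6.47% of all genes were), 1 had an unadjusted p under 0.05, and DESeq2 called 0. In the knock-out 0 were called (1.48% of all genes), 1 had an unadjusted p under 0.05, and DESeq2 called 0. The interaction called 0 members (1.28% of all genes), with 0 at an unadjusted p under 0.05 and 0 by DESeq2. The gene with the unadjusted p was MTHFD1L in both cases, with log2 changes of -0.21 for the wild type (p 0.0208, adjusted p 0.155) and -0.18 for the knock-out (p 0.044, adjusted p 0.316); its initial and final ranges were apart in each genotype, as those of 22.2% of all genes were for the wild type and those of 23.2% for the knock-out. MTHFD2 had -0.22 in the wild type (95% interval -0.44 to 0.01, adjusted p 0.27) and -0.001 in the knock-out (95% interval -0.22 to 0.22). MTHFD2L had 0.18 in the knock-out (95% interval -0.06 to 0.42, adjusted p 0.485), and ALDH1L2 had 0.31 (wild type) and 0.30 (knock-out) (adjusted p 0.31 and 0.441).

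**Figure D4:**
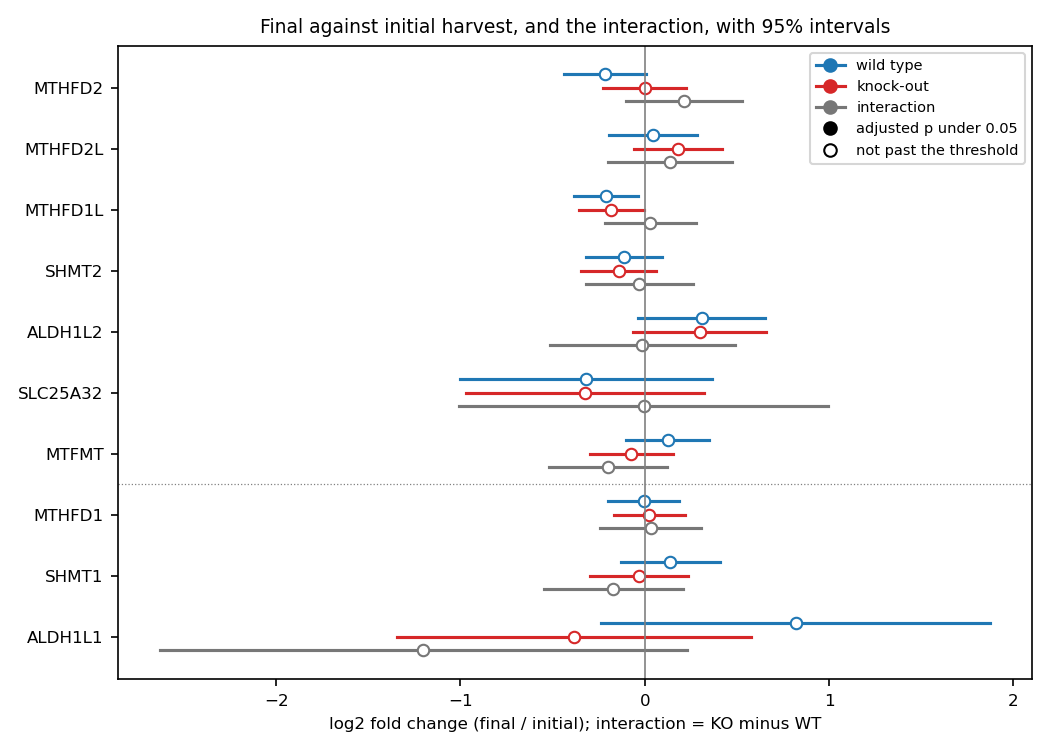
Log2 fold change of the final over the initial harvest (horizontal axis, edgeR) with its 95% interval for each gene (vertical axis) for the wild type, the knock-out and the interaction, which is the knock-out value minus the wild-type value. All points are open, since none passed the adjusted p threshold of 0.05.

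The ATF4 list (ATF4 and 22 genes known to respond to it, with all 23 tested) had 18 genes called lower and 1 higher at the initial harvest, 15 lower at the final harvest, and 20 lower and 1 higher on average. Among all genes 11.3%, 10.2% and 16.1% were lower. On average the median log2 fold change was -0.64 against 0.003 for all genes. The list was drawn up without the 10 members and without the serine and glycine supply genes given below. Its make-up does not show whether those genes respond to ATF4. The higher one was ATF5 (0.26 on average, adjusted p 0.0187), a transcription factor related to ATF4, and ATF4 itself had -0.29 (adjusted p 0.00549). By harvest, ATF5 had 0.40 initially (adjusted p 0.0184) and 0.13 finally (adjusted p 0.501, not called). ATF4 had -0.30 initially (adjusted p 0.0436) and -0.27 finally (adjusted p 0.0729, not called). CHAC1, which degrades glutathione, fell from 42.9 ± 10.2 to 6.37 ± 0.544 CPM initially and from 23.4 ± 1.64 to 5.48 ± 0.705 CPM finally (averaged log2 fold change -2.42, adjusted p 6.98e-11). PCK2, the mitochondrial phosphoenolpyruvate carboxykinase, and TRIB3, a feedback inhibitor of ATF4, had averaged changes of -1.25 (adjusted p 4.86e-10) and -1.42 (adjusted p 3.29e-09). Serine and glycine supply had 5 of 9 genes lower at each harvest and 6 on average, beside the same 11.3%, 10.2% and 16.1% of all genes. The serine exchanger SLC1A4 fell by 1.21 (adjusted p 2.76e-09), PHGDH, the first enzyme of serine synthesis, by 0.89 (adjusted p 1.24e-08) and the transaminase PSAT1 by 0.94 (adjusted p 1.51e-08) on the averaged log2 scale.

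Genes that carry, use or recycle folate outside these enzymes were called in both directions. Of 24, 23 were tested, with 2 higher and 2 lower at the initial harvest, 5 higher and 2 lower at the final harvest, and 5 higher and 3 lower on average, where the median was -0.006. Over all genes 19.9%, 18.5% and 30.1% were called, so the share of these genes called lies near the background at the initial harvest and on average. At the final harvest 7 of the 23 were called, a larger share than among all genes. GART, which uses formyl-folate in purine synthesis, fell from 241 ± 16.0 to 168 ± 6.23 CPM initially and from 271 ± 16.3 to 180 ± 11.4 CPM finally (averaged log2 fold change -0.55, adjusted p 1.83e-06). SLC19A1, the reduced folate carrier of the plasma membrane, rose from 71.5 ± 7.37 to 122 ± 3.05 CPM and from 87.5 ± 12.9 to 110 ± 11.8 CPM (0.55, adjusted p 4.08e-05). GLDC, the decarboxylase of the glycine cleavage system, which makes methylene-tetrahydrofolate in mitochondria, fell from 8.62 ± 0.91 to 5.57 ± 0.319 CPM and from 9 ± 0.593 to 6.51 ± 0.647 CPM (-0.55, adjusted p 6.59e-05; SD, n = 3 throughout).

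Around MTFMT, a list of 9 genes of mitochondrial translation initiation, deformylation and tRNA processing was read, of which MAP1D was not found by its symbol. Of the 8 tested, 2 were called on average, both higher, while 30.1% of all genes were called. They were MARS2, which charges the tRNA that MTFMT formylates (0.28, adjusted p 0.00195), and TRMT10C, a subunit of mitochondrial RNase P (0.24, adjusted p 0.0191); both passed at the initial harvest. In the final libraries edgeR called 0 of the 8, 0 had an unadjusted p under 0.05, and DESeq2 called 0. A list of 7 mitochondrial enzymes linked to NADPH or NADH, besides the folate enzymes, had 6 genes tested (ALDH4A1, GLUD1, IDH2, ME2, ME3 and NADK2). NNT, also listed, was not among the genes tested. Of the 6, 1 was lower on average: IDH2, isocitrate dehydrogenase, at -0.38 (adjusted p 0.00339), beside 16.1% of all genes lower. IDH2 also passed at the final harvest (-0.47, adjusted p 0.0138).

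Among 12536 expressed genes, the 5 whose log2 CPM followed MTHFD2 most closely over the 12 libraries were PSAT1 (Pearson r 0.990), TBL1X (0.988), RNF43 (0.987), CDYL (0.987) and KIAA0040 (0.986). The most opposite were SOBP (-0.991), SCAMP5 (-0.982) and SULF2 (-0.981). Of the enzymes, SHMT2 had r 0.814 (place 916), MTHFD1L 0.794 (place 1055), ALDH1L2 0.647 (place 2015), MTHFD1 0.521, MTHFD2L 0.117, MTFMT 0.0478 and SHMT1 -0.353. These values describe 12 libraries that fall into 2 genotypes, so any gene with a large genotype difference ranks high. The selection depended on single libraries and on the kind of correlation. In 7 of 13 alternatives more than 1 of the 5 genes left the first 5. Of the 5, 0 stayed among the first 5 without initial wild-type replicate 2, 2 without initial wild-type replicate 1, and 1 (PSAT1, in first place) with Spearman correlations.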

How the data were processed

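The submitters' processing notes name STAR, featureCounts and Subread with build hg38, without versions; annotation release, use of strand and treatment of reads on several places or genes are not given in the sources used here. Raw gene counts are deposited as the authors' featureCounts-style table with a column for each library; its other measure is a summed exon length in bases, per the file headers. A gene broken over 5 lines was left out. Symbols were found for 60636 of 60648 genes; 37318 IDs occur with the same version in GENCODE 29, all with identical GRCh38 coordinates. After filterByExpr and TMM scaling, R 4.3.3 with edgeR 4.0.16 and limma 3.58.1 was used to fit a robust quasi-likelihood model of all 12 libraries with a mean per group; SE is the log2 fold change over the root of F. The step was also run on simulated counts, drawn independently for each gene and library. Those counts hold no variation that genes share within a library, so they do not give an error rate for these data. Alternatives were DESeq2 1.42.0, RLE factors, no filter, only the groups compared, a replicate block and leaving out each library. Replicate libraries differed by more than sampling noise (mean chi-square 5.27 to 65.3 per gene). The 10 genes, the lists and the naming rule (all members, the 3 list genes with the smallest averaged adjusted p under 0.05, and the 5 genes most and 3 least like MTHFD2, from a mean log2 CPM of 1 upwards) were chosen with earlier results of these data known.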

Additional observations from a re-analysis of the deposited data

How the results depend on the processing

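Across the alternatives, 968 of 998 recomputed log2 fold changes of the 10 genes stayed on their side of the threshold. Of the others, 26 lost it and 4 gained it. Most of the 998 belong to differences that the main setting did not call, so this share says little about the calls. All 26 losses fell on calls at a single harvest. Initially the MTHFD1L call held in 11 of 17 alternatives and the ALDH1L2 call in 12. Finally the ALDH1L2 call held in 14 of 17 and the SHMT2 call in 5. MTHFD2 was called in 17 of 17 at each harvest. No called value changed sign, while 52 values that were never called did. The 4 averaged calls held throughout. Leaving out single libraries moved the number of members called between 1 and 3 at the initial and between 1 and 4 at the final harvest, with MTHFD2 as the member that remained. Over all genes, the same step gave 2423 to 4615 calls at the initial harvest (3635 with all libraries), 627 to 1399 over time in the wild type (1183), 94 to 463 over time in the knock-out (270) and 124 to 444 in the interaction (235). A fit of only the groups compared gave 578 and 728 genes over time in the wild type and the knock-out; no filter gave 484 over time in the knock-out and 423 in the interaction, and DESeq2 gave 535 and 450. The mitochondrial sum of the knock-out was 62.2% (CPM) or 67.7% (coding transcript length, added after seeing the data) of the wild type at the initial harvest and 64.7% (CPM) at the final one, and 69.8% to 75.1% initially without single libraries; the cytosolic sum was 90.1% to 100.4%. The cause of these shifts was not tested.

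Replicate numbers are shared by the groups, but same-numbered libraries did not deviate together in every pair of groups. Their r was -0.59 to 0.534, with 8 of 18 pairs over 0.1 and 5 of 12 libraries closest to their own number. Same-numbered pairs without a final knock-out library had r -0.04 to 0.534, and those with 1 had -0.59 to 0.187. Pairs of different number had r -0.773 to 0.728. With a replicate block, MTHFD2 had -1.59 initially and -1.37 finally, 3539 and 3298 genes were called, and SHMT2 was lost at the final harvest (-0.29, adjusted p 0.0669). With 3 to 14 counts of ALDH1L1 and 11 to 33 of SLC25A32, averaged log2 changes had SEs of 0.338 and 0.222, against 0.0584 for MTHFD1L and 0.0686 for SHMT2.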
